A study of Mus musculus with 2 samples.

Results

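A set of 40 genes of fatty acid synthesis, desaturation, acyl-CoA activation and glycerolipid assembly was examined in mouse extraembryonic endoderm (XEN) cells that received an oligonucleotide against the noncoding RNA Gata6-AS. The genes were taken by symbol from a table of 26127 genes; all 40 symbols were present, and 31 of the 40 averaged 1 RPKM or more across the pair of libraries and are called measured here. RPKM, read counts scaled to transcript length and to the library's total of mapped reads, is a level that allows genes of different length to be set side by side. XEN cells are a stem cell line type derived from the primitive endoderm of the blastocyst, the lineage that forms the yolk sac lining. The study had 2 libraries of total RNA from the female XEN line PS10 of ICR background. The Gata6-AS LNA library came from cells transfected, by Lipofectamine RNAiMax, with a locked nucleic acid (LNA) directed against Gata6-AS, and the control LNA library from cells transfected in the same way with a control LNA. Both groups are 1 library of 1 cell line, so no test could be made, and each difference below compares these 2 libraries only.

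Fatty acid synthesis starts in the cytosol, where citrate is split into acetyl-CoA, acetyl-CoA is carboxylated to malonyl-CoA, and fatty acid synthase builds palmitate from both with reducing power from NADPH. Elongases lengthen the chain and desaturases put in double bonds, while acyl-CoA synthetases activate fatty acids, taken up or released inside the cell, so that they can enter lipids or be burned. Glycerolipid enzymes then add acyl chains to glycerol 3-phosphate in steps that lead to phospholipids and to the triacylglycerol of lipid droplets. Several genes of the synthetic branch are known targets of the transcription factor SREBP-1, the product of Srebf1, as many cholesterol synthesis genes are of its relative SREBP-2.

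The levels stood on about 1.23e+08 reads in the Gata6-AS LNA library and 1.04e+08 in the control LNA library, as worked out from the steps between RPKM values of short genes of 1 exon. Among the measured members, the Gata6-AS LNA library held at least 217 to 55996 reads per gene and the control LNA library at least 388 to 33773. Percentages of the control level below carry an exact (Clopper-Pearson) 95% interval made from these lowest possible read numbers, which covers counting error only and says nothing of the spread between cultures. Gata6-AS itself was at 5.83 RPKM in the Gata6-AS LNA library and 10.1 RPKM in the control LNA library, 57.8% of control, and Gata6 at 55.7 and 81.9 RPKM, 68.0% of control. The 11 XEN and primitive endoderm markers were all measured and summed to 3807 RPKM in the Gata6-AS LNA library and 4967 RPKM in the control LNA library, with 9 of the 11 lower, so the XEN label held in both. The part of these lower markers in the values of the lipid genes was not tested. Markers of other cell types summed to less than the XEN markers: visceral endoderm genes at 278.1 RPKM in the Gata6-AS LNA library and 292.5 RPKM in control LNA (5 of 9 measured), pluripotency genes at 5.13 and 4.68 RPKM (1 of 6, Nanog), fibroblast genes at 4.68 and 3.87 RPKM (1 of 8, Pdgfrb), and trophoblast genes at 2.48 and 1.72 RPKM (0 of 6). The pluripotency genes Sox2 and Esrrb, the fibroblast genes Thy1, Col3a1 and Twist1 and the adipocyte genes Adipoq, Fabp4 and Lep were listed at 0 in both libraries. Of the other adipocyte markers, Plin1 and Cidec were at most 0.0127 and 0.0260 RPKM, and Pparg was at 1.69 RPKM in the Gata6-AS LNA library and 3.48 RPKM in the control LNA library. In bulk RNA, fewer cells of a type and less RNA per cell cannot be told apart.

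Differences are given as log2(RPKM + 1) in the Gata6-AS LNA library minus control LNA, a scale that understates the change of low genes, and a gene is past the size rule when this difference reaches 0.585, a factor of 1.5. Of the 31 measured members, 3 were past it on the higher side (Fads2, Elovl6 and Pnpla2), which is 9.68% of the members against 3.42% of all 10869 measured genes. On the lower side 2 were past it, Acsl5 and Lpin1, which is 6.45% of the members against 1.95% of all measured genes. With a factor of 2 in its place, no measured member was higher (0.331% of all genes) and only Acsl5 was lower (0.451% of all genes). The share of members above 0, 21 of 31 or 67.7%, was near the 58% of all measured genes, and it was 17 of 31 once the median of all genes was set to 0, so no lean beyond that of all genes is read from it. The members' median difference was 0.17 on the log2 scale against 0.05 for all genes. That median rests on the filter, as it was 0.0241 among members averaging at least 5 RPKM. The authors' deposited table, which lists 2099 selected genes with p-values of at most 0.07499, holds 8 of the 31 measured members as higher and 2 as lower, 6.23% and 5.71% being the shares of all measured genes listed in each direction. The sources used here do not say how the p-values of the authors' deposited table were computed from 1 library per group.

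**Figure D1:**
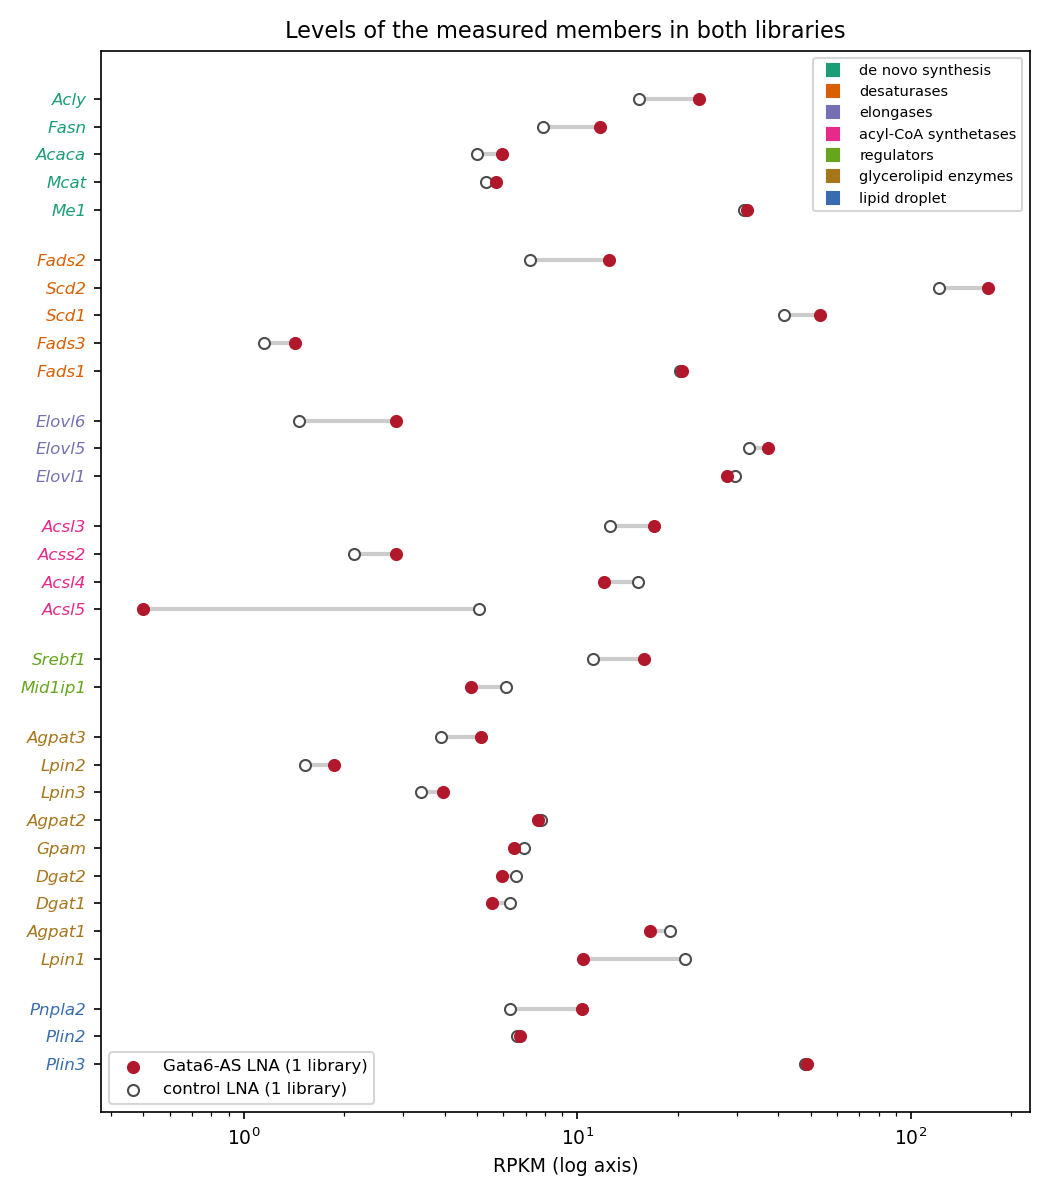
RPKM on a log axis of the 31 measured members, grouped by role, in the Gata6-AS LNA library (filled points) and the control LNA library (open points), 1 library each. The widest gap is that of Acsl5, at 0.4996 and 5.08 RPKM, while Scd2 is the highest member in both libraries at 169.6 and 121.5 RPKM.

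The promoters of the members with differences past the size rule are shown because these genes carry the result, and because SREBP, NF-Y and GATA factors bind known short motifs near gene starts. RefSeq starts in the GRCm38.p6 assembly were available for 33 of the 40 members, with no entry for Mcat, Scd1, Scd2, Fads1, Elovl3, Dgat1 and Dgat2. The 250 bases before each start were searched on both strands for the sterol regulatory element TCACNCCAC, the E-box CACGTG, the NF-Y box CCAAT, the GATA core GATAA and the amino acid response element TTGCATCA. Sequences run 5′ to 3′ on the strand of the gene, and capitals mark a motif. The windows are chr19:55253119-55253368 (plus strand) for Acsl5, chr12:16610967-16611216 (minus strand) for Lpin1, chr3:129532136-129532354 (plus strand) for Elovl6, kept to the 219 bases before an annotated exon, and chr7:141454938-141455187 (plus strand) for Pnpla2.
Acsl5: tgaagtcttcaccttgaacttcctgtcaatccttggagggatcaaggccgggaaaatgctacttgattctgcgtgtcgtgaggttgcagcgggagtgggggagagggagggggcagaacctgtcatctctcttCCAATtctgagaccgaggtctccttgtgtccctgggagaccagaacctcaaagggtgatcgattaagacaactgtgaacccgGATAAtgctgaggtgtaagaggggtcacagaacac
Lpin1: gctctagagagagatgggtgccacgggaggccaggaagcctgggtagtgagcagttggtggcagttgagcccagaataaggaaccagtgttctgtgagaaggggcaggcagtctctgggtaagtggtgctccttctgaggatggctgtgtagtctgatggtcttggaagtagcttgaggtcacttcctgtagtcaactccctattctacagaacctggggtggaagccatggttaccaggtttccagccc
Elovl6: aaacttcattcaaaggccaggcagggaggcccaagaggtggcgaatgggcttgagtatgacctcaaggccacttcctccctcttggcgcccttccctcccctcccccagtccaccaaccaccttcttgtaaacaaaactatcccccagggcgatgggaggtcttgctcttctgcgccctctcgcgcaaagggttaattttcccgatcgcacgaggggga
Pnpla2: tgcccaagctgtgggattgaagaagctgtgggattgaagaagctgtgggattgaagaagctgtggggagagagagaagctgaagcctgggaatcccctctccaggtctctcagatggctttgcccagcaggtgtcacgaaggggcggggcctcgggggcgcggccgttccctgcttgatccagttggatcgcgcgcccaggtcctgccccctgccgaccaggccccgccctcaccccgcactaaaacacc

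In these windows Acsl5 held an NF-Y box from base -117 and a GATA core from base -35, counted back from the start, while Lpin1, Elovl6 and Pnpla2 held none of the 5 motifs, nor did Fads2, whose window is not shown because 243 of its 250 bases lie in annotated exons. Over the 46 promoters of the 33 members, the NF-Y box was present in 43.5%, against 33.8% of all 32851 promoters in the table. It was in 76.5% of the 17 promoters of cholesterol synthesis genes and 47.4% of the 19 promoters of fatty acid oxidation genes. By gene, 18 of the 33 members held the NF-Y box: Acacb, Acsl1, Acsl3, Acsl5, Acsl6, Acss2, Agpat1, Elovl1, Elovl5, Fads3, Fasn, Gpam, Lpin2, Me1, Plin2, Plin3, Srebf1 and Thrsp. The sterol regulatory element was found in 1 member promoter, of Acsl1 (2.17% against 1.05% of all promoters), and the E-box in promoters of Elovl5 and Lpin2 (4.35% against 6.02%). GATA cores were in 13.0% of the members' promoters against 22.6% of all (Acsl5, Acsl6, Agpat1, Elovl1, Gpam and Lpin2), and the amino acid response element in none against 0.791%. These matches describe the letters in the windows and say nothing of whether a factor was bound. The RPKM values belong to mm9 coordinates. Whether each RefSeq start used here, that of Lpin1 included, is the start of the counted gene was not checked.

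The de novo synthesis genes were all at or somewhat above the control level, and none was past the size rule. Acly, which encodes ATP citrate lyase, the enzyme that makes cytosolic acetyl-CoA, was at 23.2 RPKM in the Gata6-AS LNA library against 15.3 RPKM in control LNA, 151% of control (147% to 156%). Fasn, the fatty acid synthase that makes palmitate, was at 11.7 RPKM with the Gata6-AS LNA against 7.91 RPKM with control LNA, 148% of control (144% to 152%). These were the pair that differed most in the group, with log2 differences of 0.57 and 0.51, just short of the rule. The authors' deposited table lists Acly with a log2 difference of 0.60 (p = 0.0246) and Fasn with 0.58 (p = 0.0415). Acaca, the acetyl-CoA carboxylase that makes malonyl-CoA for synthesis, was at 5.95 RPKM against 5.01 RPKM in control LNA, 119% of control, a log2 difference of 0.21. Mcat, a malonyl transferase of the mitochondrial pathway, was at 5.71 RPKM against 5.30 RPKM in control LNA, and its interval of 99.3% to 117% took in 100%. Me1, the cytosolic malic enzyme that yields NADPH, was the most abundant of the group at 32.1 RPKM in the Gata6-AS LNA library and 31.5 RPKM in control LNA, which is 102% of control (99.6% to 105%). The group's median difference was 0.21, with 5 of 5 measured genes above 0, against 58% of all measured genes. Of the 5, Me1 passed below 0 when the median of all genes was set to 0. Acacb, the carboxylase isoform tied to mitochondria, was not measured, at 0.409 RPKM with the Gata6-AS LNA and 0.346 RPKM with control LNA.

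All 5 desaturase genes were measured and above 0, against 58% of all measured genes, with a median difference of 0.34. Fads1, however, passed just below 0 under both other scalings of the libraries. Scd2, a stearoyl-CoA desaturase that puts the first double bond into saturated chains, was the highest of all 40 members at 169.6 RPKM in the Gata6-AS LNA library and 121.5 RPKM in control LNA, 140% of control (138% to 142%, log2 difference 0.48). Its paralog Scd1 was at 53.2 RPKM with the Gata6-AS LNA and 41.8 RPKM with control LNA, 127% of control, a log2 difference of 0.34. Scd2 made up 76.1% of the summed RPKM of the pair in the Gata6-AS LNA library and 74.4% in control LNA, so their ratio was nearly the same. Scd1 and Scd2 lie beside their relatives Scd3 and Scd4 on chromosome 19, and the sources used here do not say how reads that match several of them were counted, so the split between them is uncertain. Scd3 was at 10.03 RPKM in the Gata6-AS LNA library and 8.17 RPKM in control LNA, and Scd4 at 4.25 and 4.12 RPKM. The authors' deposited table lists Scd2 (log2 difference 0.45, p = 0.068) and does not list Scd1.

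Among the front-end desaturases, which act on polyunsaturated chains, Fads2 stood apart from its neighbour Fads1. Fads2, the delta-6 desaturase of the entry step, was at 12.4 RPKM in the Gata6-AS LNA library against 7.20 RPKM in control LNA, 172% of control (160% to 185%), and its log2 difference of 0.71 was the most positive of the 31 members. That place rests on the pseudocount of 1 RPKM. With 0.5 RPKM the elongase gene Elovl6 was above Fads2 (0.778 against 0.744), and so it was with 0.1 RPKM (0.925 against 0.775). Fads1, the delta-5 desaturase that acts later in the same route, was at 20.5 RPKM against 20.4 RPKM in control LNA, 101% of control (97.9% to 104%). Fads3, a relative that acts on sphingoid bases, was low at 1.42 RPKM with the Gata6-AS LNA and 1.15 RPKM with control LNA, 124% of control. Fads2 therefore made up 36.1% of the summed RPKM of the 3 genes in the Gata6-AS LNA library against 25.1% in control LNA, and Fads1 59.8% against 70.9%. In mm9 Fads2 lies on the minus strand at chr19:10138654-10175993, between Fads3 and Fads1. Within 200 kb of Fads2, 9 other genes were measured, with log2 differences of 0.01 to 0.70 and a median of 0.19, and 1 of them was past the size rule: Fth1, the ferritin heavy chain, at 577 RPKM in the Gata6-AS LNA library and 354 RPKM in control LNA. The authors' deposited table gives Fads2 a log2 difference of 0.68 (p = 0.0246).

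The elongase genes were split between 3 that were measured and 4 that were low or listed at 0. Elovl6, which lengthens palmitate to stearate, was at 2.86 RPKM in the Gata6-AS LNA library and 1.46 RPKM in control LNA, 196% of control (181% to 212%), with a log2 difference of 0.65 that was past the size rule. Elovl5, which lengthens polyunsaturated chains, was at 37.4 RPKM with the Gata6-AS LNA and 32.7 RPKM with control LNA, 114% of control (log2 difference 0.19). Elovl1, an elongase of very long saturated chains, was at 28.1 RPKM against 29.7 RPKM in control LNA, 94.8% of control (92.1% to 97.7%), and was the 1 gene below 0 among the measured genes of synthesis, desaturation and elongation. In the authors' deposited table Elovl6 has a log2 difference of 0.87 (p = 0.0139). Of the genes that were not measured, Elovl2, an elongase of very long polyunsaturated chains, was at 0.194 RPKM in the Gata6-AS LNA library and 0.0552 RPKM in control LNA, on at least 46 and 11 reads. The authors' deposited table nonetheless lists Elovl2, with a log2 difference of 1.68 (p = 0.00296). Elovl4 was at 0.914 RPKM with the Gata6-AS LNA and 0.512 RPKM with control LNA, Elovl7 at 0.488 and 0.624 RPKM, and Elovl3 was listed at 0 in both. Over synthesis, desaturation and elongation together, 12 of 13 measured genes were above 0 as deposited, against 58% of all measured genes. Of these, Me1 and Fads1 were only just above, and passed below 0 once the median of all genes was set to 0. A common shift of the 3 groups was not tested. The summed level was 406.3 RPKM in the Gata6-AS LNA library against 322.3 RPKM in control LNA, with Scd2 the largest single gene in both.

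The acyl-CoA synthetases did not move as a group: Acsl5 and Acsl4 were lower, and Acsl3 and Acss2 higher. Acsl5, a long-chain acyl-CoA synthetase of the outer mitochondrial membrane and endoplasmic reticulum, was at 0.4996 RPKM in the Gata6-AS LNA library against 5.08 RPKM in control LNA, on at least 217 and 1857 reads. The Acsl5 level was thus 9.84% of control (8.51% to 11.3%), and its log2 difference of -2.02 was the fourth most negative among all 10869 measured genes. Acsl5 passed the filter on the mean only through its control level, which ranked 24th of the 31 measured members. Its last place among them in the Gata6-AS LNA library follows from that filter. Acsl1, which was not measured, was higher there at 0.981 RPKM. The authors' deposited table gives Acsl5 a log2 difference of -3.44 (p = 7.48e-13).

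The other synthetases differed by far less. Acsl3, a synthetase of the endoplasmic reticulum and of nascent lipid droplets, was at 17.0 RPKM with the Gata6-AS LNA and 12.6 RPKM with control LNA, 136% of control (131% to 141%), a log2 difference of 0.41. Acsl4, which prefers arachidonate and other polyunsaturated acids, was at 12.0 RPKM with the Gata6-AS LNA and 15.2 RPKM with control LNA, 78.9% of control (76.5% to 81.4%), a log2 difference of -0.32. Acss2, the cytosolic enzyme that makes acetyl-CoA from acetate, was at 2.86 RPKM with the Gata6-AS LNA and 2.14 RPKM with control LNA, 133% of control (log2 difference 0.30). The other 3 were not measured: Acsl1 at 0.981 RPKM in the Gata6-AS LNA library and 0.872 RPKM in control LNA, Acsl6 at 0.0632 and 0.101 RPKM, and the mitochondrial acetate enzyme Acss1 at 0.0158 and 0.0140 RPKM. The authors' deposited table lists Acsl3 as higher (log2 difference 0.41, p = 0.0627) and the barely detected Acsl6 as lower (-0.80, p = 0.0524).

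The make-up of the Acsl family shifted more than its sum. The 5 Acsl genes summed to 30.6 RPKM in the Gata6-AS LNA library and 33.8 RPKM in control LNA. Acsl5 made up 1.63% of that sum in the Gata6-AS LNA library against 15.0% in control LNA, Acsl3 55.6% against 37.1%, and Acsl4 39.3% against 45.0%. The most abundant family member was thus Acsl3 in the Gata6-AS LNA library and Acsl4 in the control LNA library.

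**Figure D2:**
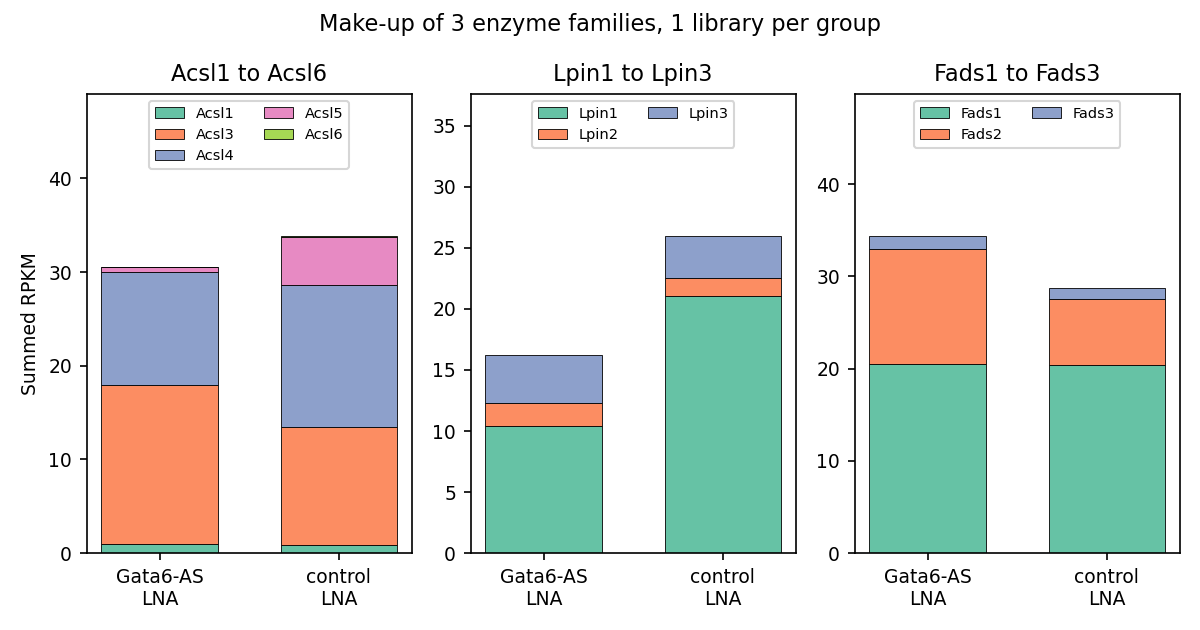
Stacked bars of summed RPKM (linear axis from 0) for the Acsl, lipin and Fads families in the Gata6-AS LNA library (left bar of each panel) and the control LNA library (right bar), 1 library each. The Acsl5 and Lpin1 segments are smaller in the Gata6-AS LNA bars, and the Fads2 segment is larger.

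The surroundings of Acsl5 bear on how its value is read. In mm9 the gene lies on the plus strand at chr19:55327859-55371117, and its last 7038 bp overlap Zdhhc6, a palmitoyltransferase gene on the opposite strand. Zdhhc6 was at 28.8 RPKM in the Gata6-AS LNA library and 47.9 RPKM in control LNA, 60.1% of control. The sources used here do not say whether counting was by strand, so reads of the stretch held in common cannot be told apart between Acsl5 and Zdhhc6. The other measured genes within 200 kb, were Vti1a at 78.7% of control and Gpam at 93.4%. Gucy2g, 12133 bp away, was under 1 RPKM in both, at 0.163 RPKM in the Gata6-AS LNA library and 0.743 RPKM in control LNA. All 4 of these neighbours were thus below their control level, and their part in the Acsl5 value was not tested.

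Of the 9 glycerolipid enzyme genes, 3 were above 0 and 6 below, with a median difference of -0.09. Lpin1, the phosphatidate phosphatase lipin-1 that makes diacylglycerol and also acts as a transcriptional coregulator, was at 10.4 RPKM in the Gata6-AS LNA library against 21.0 RPKM in control LNA. That is 49.4% of control (48.0% to 50.9%), with a log2 difference of -0.95, the 56th most negative of 10869, and the authors' deposited table gives Lpin1 -1.01 (p = 0.00114). Its paralogs were low and slightly higher than control: Lpin2 was at 1.86 RPKM with the Gata6-AS LNA and 1.52 RPKM with control LNA (log2 difference 0.18). Lpin3 was at 3.95 RPKM with the Gata6-AS LNA and 3.39 RPKM with control LNA (0.17). The 3 lipins summed to 16.2 RPKM in the Gata6-AS LNA library and 25.96 RPKM in control LNA, and Lpin1 made up 64.1% of the sum against 81.1%. The single measured neighbour of Lpin1 within 200 kb, Greb1, was at 1.56 RPKM in the Gata6-AS LNA library and 1.43 RPKM in control LNA. Lpin1 itself lies on the minus strand at chr12:16542475-16596576 in mm9 and overlaps no other gene of the table.

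The enzymes before and after the lipin step differed little. Gpam, the mitochondrial acyltransferase that starts glycerolipid synthesis, was at 6.45 RPKM with the Gata6-AS LNA and 6.91 RPKM with control LNA, 93.4% of control. Of the next acyltransferases, Agpat1 was at 16.5 RPKM with the Gata6-AS LNA and 19.0 RPKM with control LNA (87.0% of control), and Agpat2 at 7.61 and 7.78 RPKM (97.9%). Agpat3 was the exception, at 5.15 RPKM with the Gata6-AS LNA and 3.90 RPKM with control LNA, 132% of control and a log2 difference of 0.33. Both enzymes of the final step to triacylglycerol were slightly lower, Dgat1 at 5.53 RPKM with the Gata6-AS LNA and 6.28 RPKM with control LNA (88.1%) and Dgat2 at 5.93 and 6.52 RPKM (90.8%). Summed over the 9 genes, the level was 63.4 RPKM in the Gata6-AS LNA library and 76.4 RPKM in control LNA, and Lpin1 alone accounts for most of that gap.

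Of the lipid droplet genes, the lipase was past the size rule and the coat proteins were close to their control level. Pnpla2, the adipose triglyceride lipase that releases fatty acids from triacylglycerol, was at 10.3 RPKM in the Gata6-AS LNA library and 6.28 RPKM in control LNA, 164% of control (156% to 173%), and its log2 difference of 0.64 was past the size rule. The authors' deposited table gives Pnpla2 0.65 (p = 0.0258). Within 200 kb of Pnpla2, 19 other genes were measured, with log2 differences of -0.27 to 0.60 and a median of 0.17. Only Lrdd was past the size rule, at 6.56 RPKM in the Gata6-AS LNA library and 3.98 RPKM in control LNA. Efcab4a, 351 bp away, was at 147% of control, and Gm10575, 738 bp away, at 79.3%. The part of these neighbours in the Pnpla2 value was not tested. The droplet coat gene Plin2 was at 6.71 RPKM with the Gata6-AS LNA and 6.61 RPKM with control LNA, and Plin3 at 48.8 and 48.2 RPKM, with intervals of 96.1% to 107% and 98.7% to 104% of control. Setting the median of all genes to 0, a shift of 0.05, turned these small positive differences of Plin2 and Plin3 to just below 0, as did equal summed RPKM.

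Regulators within the set diverged. Srebf1, which encodes the transcription factor SREBP-1, was at 15.8 RPKM in the Gata6-AS LNA library and 11.1 RPKM in control LNA, 142% of control (138% to 147%), a log2 difference of 0.47. The authors' deposited table lists Srebf1 with 0.50 (p = 0.0476). Mid1ip1, whose product promotes polymerisation of acetyl-CoA carboxylase, was at 4.80 RPKM with the Gata6-AS LNA and 6.10 RPKM with control LNA, 78.7% of control (72.8% to 85.0%). Mid1ip1 overlaps a predicted gene on the opposite strand, Gm14493, at 4.64 RPKM in the Gata6-AS LNA library and 6.05 RPKM in control LNA. Thrsp, its paralog of lipogenic tissues, was listed at 0 in both. Altogether 7 members overlap a measured gene on the opposite strand: Me1, Elovl1, Acsl5, Acss2, Srebf1, Mid1ip1 and Agpat2. For Acss2 the overlapped stretch is 22544 bp of Gss, which was at 2.84 RPKM in the Gata6-AS LNA library and 1.37 RPKM in control LNA, so the higher Acss2 value is uncertain. Acsl3 likewise holds Utp14b within it on the same strand, at 2.45 RPKM with the Gata6-AS LNA and 1.36 RPKM with control LNA.

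**Figure D3:**
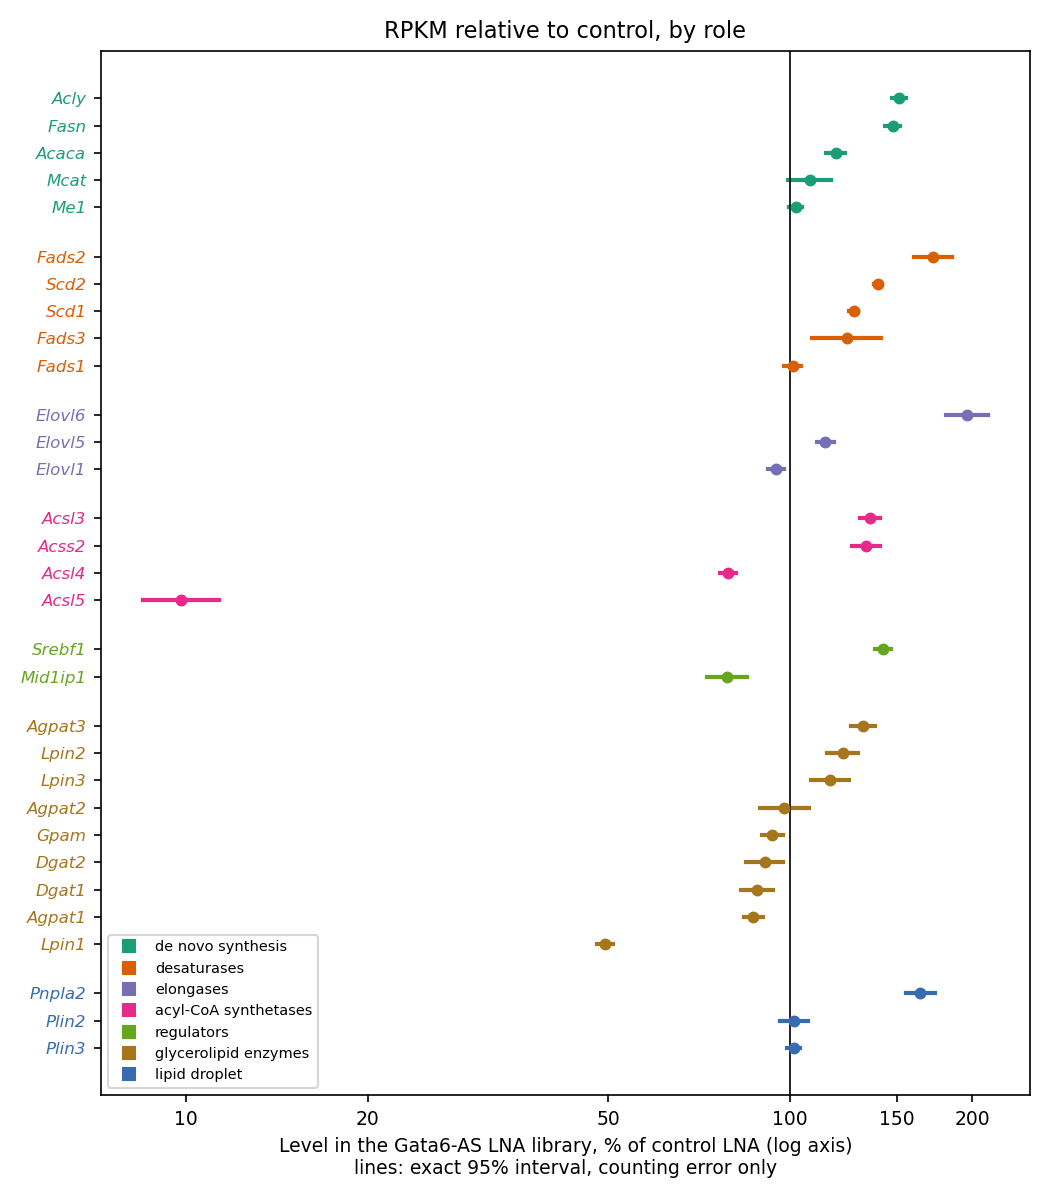
Level in the Gata6-AS LNA library as a percent of control LNA (log axis) for the 31 measured members, with exact 95% intervals that cover counting error only, grouped by role. All de novo synthesis and desaturase points lie above the line at 100% (Me1 and Fads1 by less than the shift of all genes), the glycerolipid enzymes lie on both sides of it, and Acsl5 stands alone at 9.84%.

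Set against each other, the group medians placed de novo synthesis 0.22 above the acyl-CoA synthetases and 0.30 above the glycerolipid enzymes, on the log2 scale. Neither gap holds for every gene of the groups. Acsl3 (0.41), Acss2 (0.30) and Agpat3 (0.33) lay above Acaca (0.21), Mcat (0.09) and Me1 (0.03), and the synthetase median of -0.01 falls between genes as far apart as 0.41 and -2.02. Among the measured synthetases other than Acsl5, the middle value is that of Acss2 (0.30), above the de novo median of 0.21. Without Acsl5 the order of these groups was thus reversed. The gap to the synthetases narrowed to 0.15 with no filter on low values. It was 0.16 at a mean of at least 5 RPKM, which leaves out both Acsl5 and Acss2. It widened to 0.57 when Acss2, which feeds acetyl-CoA to synthesis, was counted with de novo synthesis. Without the mitochondrial Mcat, the gaps were 0.37 to the synthetases and 0.45 to the glycerolipid enzymes. The plot of differences by role against all genes shows this spread.

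**Figure D4:**
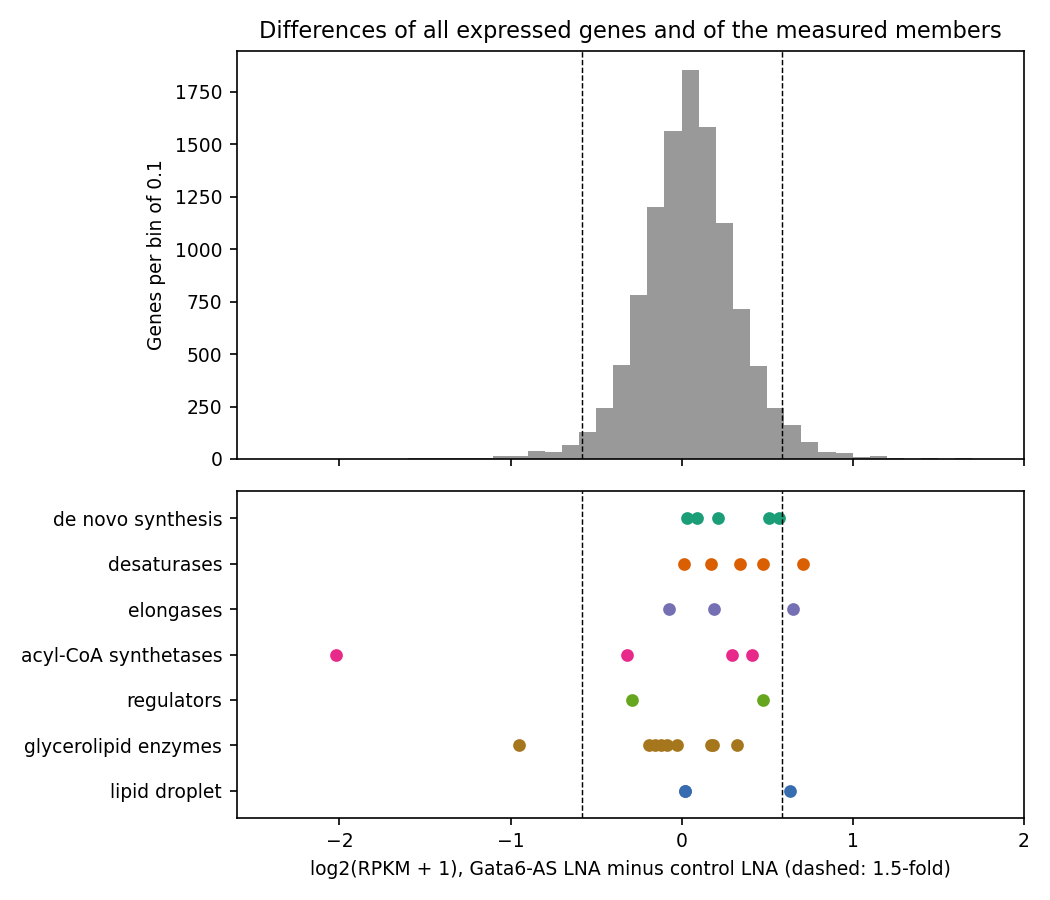
Top, number of genes per bin of 0.1 in the difference of log2(RPKM + 1), Gata6-AS LNA minus control LNA, over all 10869 measured genes, and below it the 31 measured members by role on the same axis, with the 1.5-fold rule dashed. Most members lie inside the bulk of all genes, with Acsl5 at -2.02 and Lpin1 at -0.95 to the left of it.

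Other genes of the pathway were read from lists of related genes. Of 59 further genes of fatty acid and glycerolipid metabolism, 33 were measured, with a median difference of 0.07, 3 past the size rule on the higher side and 1 on the lower. The higher ones were the acyl-CoA thioesterase Acot7, at 10.5 RPKM in the Gata6-AS LNA library and 5.11 RPKM in control LNA, and Tecr and Ptplad1, a reductase and a dehydratase of the elongation cycle. Tecr was at 77.8 RPKM with the Gata6-AS LNA and 48.8 RPKM with control LNA, and Ptplad1 at 11.7 and 7.11 RPKM (log2 differences of 0.66 and 0.65). The other genes of the elongation cycle in the list were inside the rule, with log2 differences of 0.28 for Hsd17b12, 0.01 for Ptplb, -0.0032 for Ptpla and -0.27 for Ptplad2. The lower one was G0s2, an inhibitor of the lipase encoded by Pnpla2, at 0.609 RPKM in the Gata6-AS LNA library and 1.89 RPKM in control LNA, a log2 difference of -0.85. G0s2 averaged 1.25 RPKM, on at least 63 and 165 reads, and passed the filter on the mean only through its control level. The lipase and its inhibitor thus differed in opposite directions.

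A list of 18 genes held control genes of SREBP, ChREBP, LXR and PPAR, and the AMPK pathway genes Prkaa1, Prkaa2, Prkab1 and Stk11. Of the 18, 14 were measured, with a median of 0.04, none past the rule on the higher side and 2 on the lower. Those 2 were Pparg, the nuclear receptor of adipogenesis, at 1.69 RPKM with the Gata6-AS LNA and 3.48 RPKM with control LNA, and Prkab1, a subunit of the kinase AMPK that restrains acetyl-CoA carboxylase, at 17.2 and 28.1 RPKM. The genes of SREBP processing were inside the rule: the escort protein gene Scap had a log2 difference of 0.50, the retention protein genes Insig1 and Insig2 -0.14 and 0.07, and the protease genes Mbtps1 and Mbtps2 -0.10 and -0.08.

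Cholesterol synthesis, the sister branch from acetyl-CoA, differed by more than fatty acid synthesis. All 20 of its genes found in the table were measured and all 20 were above 0, against 58% of all measured genes, with a median of 0.67. On the higher side 11 of the 20, or 55%, were past the rule, against 3.42% of all measured genes. In de novo fatty acid synthesis it was 0 of 5, which at a share of 3.42% is no result about that group. Acly there was past the rule at a pseudocount of 0.1 RPKM (0.60). Among the cholesterol synthesis genes past the rule was Fdps, the farnesyl diphosphate synthase. It was at 36.7 RPKM in the Gata6-AS LNA library and 12.7 RPKM in control LNA, a log2 difference of 1.46. Idi1, the isopentenyl diphosphate isomerase of the step before it, was at 5.02 RPKM with the Gata6-AS LNA and 1.78 RPKM with control LNA, a log2 difference of 1.11. Fatty acid oxidation lay close to the background: 22 of 24 genes were measured, with a median of 0.05, as in all genes, and none was past the rule in either direction. No difference between these lists was tested, as each library is single.

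**Figure D5:**
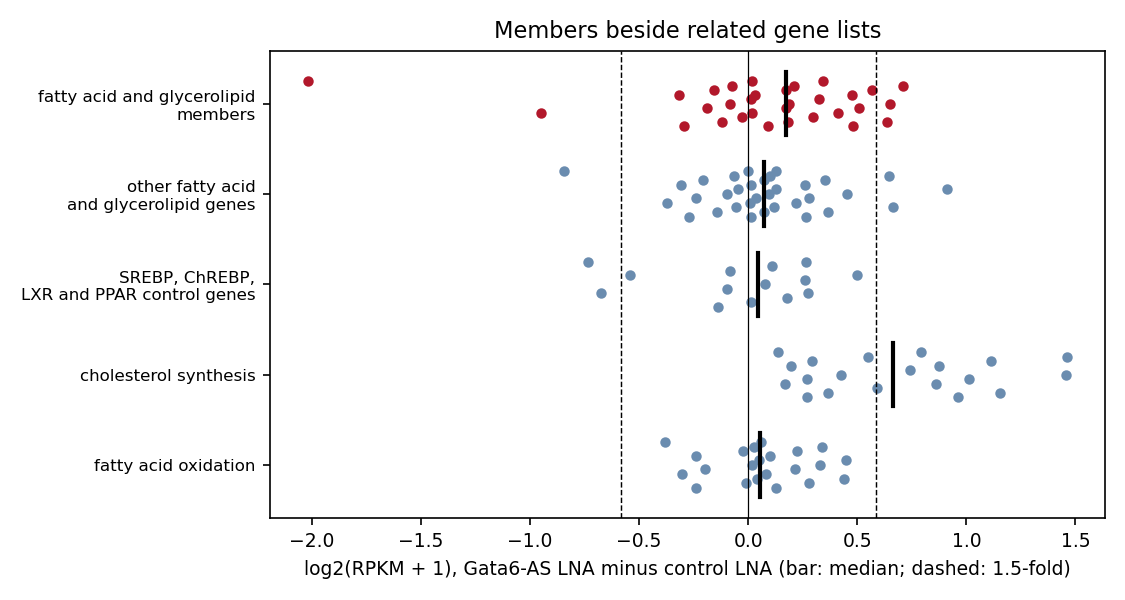
Difference of log2(RPKM + 1), Gata6-AS LNA minus control LNA, for each measured gene of the set (top row, 31 genes) and of 4 related lists, with the list median as a bar and the 1.5-fold rule dashed. The cholesterol synthesis genes all lie above 0 with a median of 0.67, while the other medians lie between 0.04 and 0.17.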

How the data were processed

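Per the submitters' processing notes, reads were aligned with TopHat to mm9; a counting tool, a gene annotation, the use of strand and tool versions were not given in the sources used here. The authors deposited RPKM values for every gene in both libraries, and a table of 2099 selected genes with RPKM, a log2 difference and a p-value per gene; per the file headers the p-value and log2 columns belong to the comparison of the same libraries. Both tables were joined by coordinates (2099 rows). Differences were computed here as log2(RPKM + 1), Gata6-AS LNA minus control LNA, with no other scaling, for the 10869 genes averaging 1 RPKM or more. Sequenced depth (1.23e+08 reads with the Gata6-AS LNA and 1.04e+08 with control LNA) was recovered from genes spanning under 3000 bp whose RPKM values are whole multiples of 1 read (886 and 828 of 5276 genes, within a relative tolerance of 3e-07), and the fewest whole reads that both RPKM values of a gene allow gave its exact 95% interval; this step was tested on simulated data. Every measured member is named with both values; of each related list, up to 4 genes per direction past 1.5-fold, by size, are named (some of the cholesterol synthesis list are not reported here), and the SREBP processing genes, other elongation cycle genes, Scd3, Scd4, Adipoq and the other marker and neighbouring genes were named after their values were seen. The members and lists were chosen with earlier results of these data known. Alternatives were other pseudocounts, scalings, filters, size rules and role assignments. Promoters came from RefSeq (GRCm38.p6). Python 3.11.15, numpy 2.4.6, pandas 2.3.3 and scipy 1.17.1 were used.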

Additional observations from a re-analysis of the deposited data

How the results depend on the processing

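With 1 library per group, no replicate could be left out. No paired analysis was possible because each group has 1 library and no result comes from a test. Under pseudocounts of 0.1 and 0.5 RPKM, the median of all genes set to 0, and equal summed RPKM, the counts of members past the rule stayed at 3 higher and 2 lower, except that a pseudocount of 0.1 RPKM added Acly (4 higher). The 2-fold rule left 0 higher and 1 lower, and a mean of at least 5 RPKM left 2 higher and 1 lower, since Elovl6 and Acsl5 average less than that. With the log2 differences of the authors' deposited table, 4 were higher and 2 lower. The members' median of 0.17 was 0.0737 with no filter on low values and 0.0241 at a mean of at least 5 RPKM. The gap of de novo synthesis over the acyl-CoA synthetases (0.22) was 0.15 with no filter, 0.57 with Acss2 moved to de novo synthesis, 0.53 with Acsl genes alone and 0.37 without Mcat. That over the glycerolipid enzymes (0.30) was 0.24 with no filter and 0.45 without Mcat. The Acsl5 difference of -2.02 was -3.11 at a pseudocount of 0.1 RPKM, and that of Elovl6 (0.65) was 0.92. Setting the median of all genes to 0 changed the sign of 4 members, Me1 (-0.02), Fads1, Plin2 and Plin3, and equal summed RPKM that of 3 of them. A level under about 0.0244 RPKM in the Gata6-AS LNA library or 0.029 in control LNA is under 3 reads for 1 kilobase of transcript.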
